A study of Mus musculus with 38 samples.

Results

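Low oxygen was applied to 2 mouse cell lines grown apart, and the question addressed here is which genes it moved differently in the 2 lines, above all which genes went up in one and down in the other. The lines were BV2, a microglial line immortalized with retroviral oncogenes, and GL261, a chemically induced mouse glioma line that here also carried a plasmid for a green fluorescent protein (pEGFP-N1) as a stable insert. Of the 38 libraries of the series, 8 entered the comparison: BV2 monoculture at 21% oxygen, BV2 monoculture at under 0.1% oxygen, GL261 monoculture at 21% oxygen and GL261 monoculture at under 0.1% oxygen, each kept for 16 h, with 2 libraries per group that the labels describe as biological replicates. The cells were fixed with glyoxal before sorting and RNA extraction, and polyadenylated RNA was sequenced. Each line stands for 1 established culture, so a difference between the lines is a difference between these 2 cultures and not between microglia and glioma at large. The measure is a difference of differences, called the interaction here: the log2 fold change of hypoxia over normoxia in BV2 minus that in GL261, fitted by edgeR's quasi-likelihood test for 16882 genes in a single fit of the 16 BV2 and GL261 libraries, with p-values adjusted by the method of Benjamini and Hochberg.

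Cells short of oxygen stabilize the hypoxia-inducible factors HIF-1 alpha and HIF-2 alpha, which bind short DNA elements and raise genes for glycolysis, glucose uptake and blood vessel growth. A stronger lack of oxygen also slows DNA synthesis and protein synthesis, strains protein folding in the endoplasmic reticulum and stops oxygen-dependent steps such as parts of sterol synthesis. In glioblastoma, microglia and tumour cells meet in oxygen-poor regions, and they differ in what they are built for: microglia are phagocytes rich in lysosomes, while glioma cells carry transcripts of glial progenitors.

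The 8 monoculture libraries held 17503500 to 27238900 reads assigned to genes. CPM here stands for read counts scaled to library size with TMM factors, except for the marker sums and the 1 CPM limit for markers. These were scaled to library totals alone and do not compare exactly with the other CPM values. Of the 18 microglial and macrophage markers, 17 reached 1 CPM in normoxic BV2, and together they summed to 2725 to 2737 CPM there and to 3704 to 3884 CPM in hypoxic BV2. In GL261 the same 18 summed to 46.2 to 46.8 CPM in normoxia and 31.1 to 34.6 CPM in hypoxia, with the defining genes Aif1, Csf1r, Cx3cr1, P2ry12 and Tmem119 below 1 CPM. The 14 glial progenitor markers showed the reverse, with 3700 to 4381 CPM in normoxic GL261 and 2689 to 2903 CPM in hypoxic GL261, where 11 of the 14 stood at 1 CPM or more, against 1.61 to 2.09 CPM in normoxic and 2.46 to 4.68 CPM in hypoxic BV2. The labels thus held for both lines, except that C1qa in BV2 and Aif1 in hypoxic BV2 stayed under 1 CPM and Sox9 and Fabp7 were among the glial markers under 1 CPM in GL261. The oxygen label held as well: Vegfa, the vessel growth factor, stood at 38.7 and 47.9 CPM in normoxic and 409 and 429 CPM in hypoxic BV2, and at 37.3 and 42.3 CPM in normoxic and 471 and 491 CPM in hypoxic GL261.

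Hypoxia moved 8433 genes (50% of those tested) in BV2 and 7341 (43.5%) in GL261 at an adjusted p under 0.05. The interaction passed the same threshold for 6322 genes (37.4%), of which 3159 (18.7%) were higher and 3163 (18.7%) lower in BV2 relative to GL261. Across genes the interaction had a median of 0.15 (log2), from a median effect of 0.04 in BV2 and 0.0 in GL261. The sizes of interactions are therefore read here against 0.15, whereas every call was a test against 0. Of 4167 genes that passed in both lines, 2921 (70.1%) moved the same way and 1246 (29.9%, or 7.38% of all tested genes) moved in opposite directions. All 1246 also passed the interaction. Among these, 537 (3.18% of tested genes) rose in BV2 and fell in GL261, and 709 (4.2%) fell in BV2 and rose in GL261. Most opposite movements were modest: 109 of the 537 (0.646% of tested genes) and 50 of the 709 (0.296%) changed at least 2-fold in each line, or 0.942% of tested genes. In the same direction, 793 genes (4.7%) changed at least 2-fold in both lines. Which of the 2 directions held more genes depended on the scaling, since upper-quartile factors gave 679 and 545 genes (55.5% in the first direction, against 43.1% with TMM), and library totals gave 465 and 778 (37.4%). With each line centred on its median effect, the directions held 495 and 764 genes (39.3%), and 47.4% of the called interactions were higher in BV2.

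**Figure D1:**
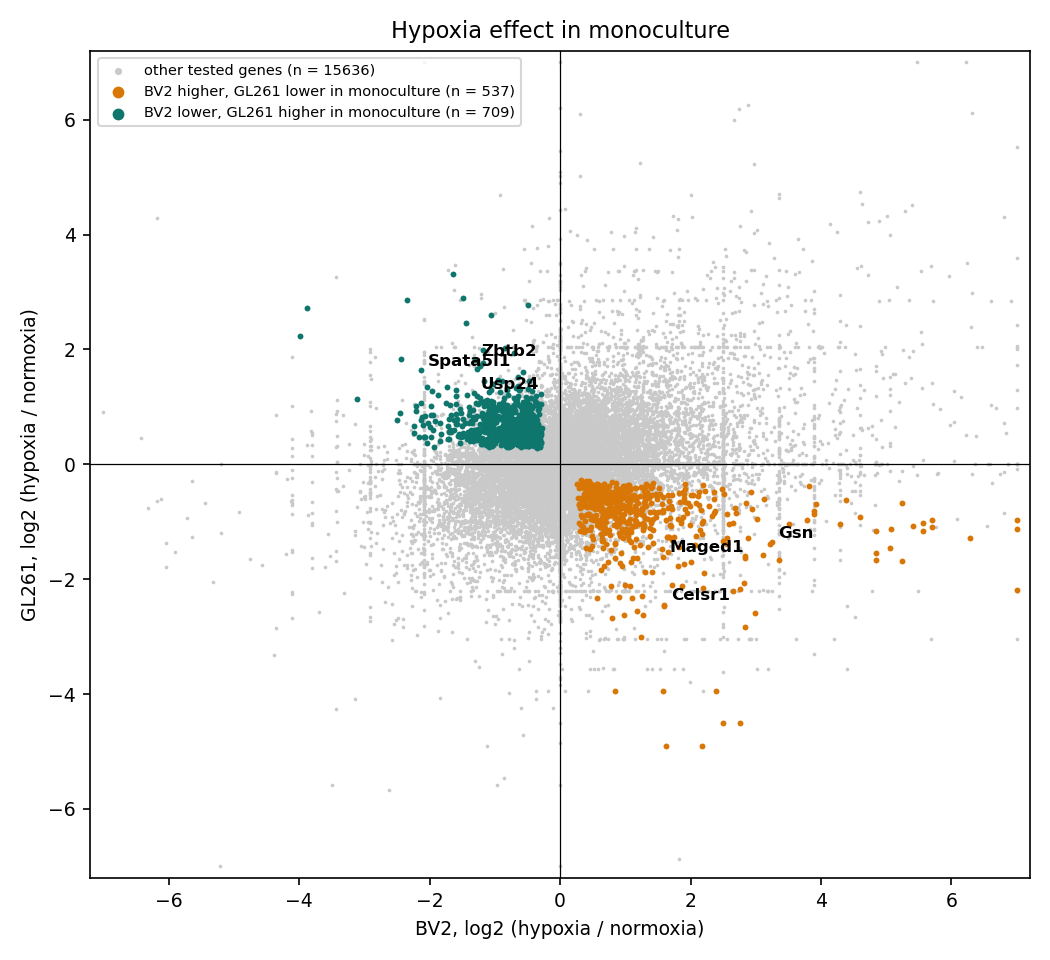
Each point is 1 of 16882 tested genes, with the log2 fold change of hypoxia over normoxia in BV2 monoculture on the x axis and in GL261 monoculture on the y axis; values beyond the axes are drawn at the edge, and rows or columns of points at fixed values are genes with counts of 0 or close to 0 in one group. The 537 genes that rose in BV2 and fell in GL261 (orange) lie at the lower right and the 709 genes with the reverse pattern (green) at the upper left, most of them within 2-fold on at least 1 axis.

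The 537 genes had a median effect of 0.96 in BV2 and -0.77 in GL261 and a median interaction of 1.82, and the 709 had medians of -0.75, 0.61 and -1.41. These values chose the genes, so they describe them and carry no test of their own. At the edge of the rule, Dazap2 entered with 0.30 in BV2 (adjusted p = 0.0499) and -0.76 in GL261, and Sord stayed just outside with -0.32 in BV2 (adjusted p = 0.0501) and 0.86 in GL261. The genes were mostly protein coding, 93.1% and 97.6% against 79.6% of all tested genes, and more abundant than the median gene, with median log2 CPM of 4.64 and 5.56 against 3.57. All tested genes include those with few reads, which pass the thresholds less easily. A comparison with other genes called in both lines was not made. For some opposite movers the line that held more of the transcript changed, at an adjusted p under 0.05 at both oxygen levels. This held for 100 of the 537 (18.6%) and 206 of the 709 (29.1%), beside 858 of all tested genes (5.08%). Genes chosen for opposite effects in these libraries shift this gap by construction. The larger shares and the medians that follow therefore describe them only. In normoxia the median difference of BV2 minus GL261 in log2 CPM was -0.41 for the 537 genes and 1.31 in hypoxia, and for the 709 it went from 0.35 to -1.18, while over all genes it was -0.12 and -0.14.

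Promoter windows of the 2 leading genes with a promoter entry in each direction show what is shared and what is not around the start of transcription. Each window is RefSeq sequence of the mouse build GRCm38.p6, 300 bases written 5′ to 3′ along the gene with the start at base 251, and capitals mark letters that match a hypoxia response element (ACGTG or GCGTG on either strand) or an E2F site (TTCCCGC or TTGGCGC or TTCGCGC on either strand). Maged1 and Nek8 rose in BV2 and fell in GL261, and Spata5l1 and Ercc8 did the reverse.
Maged1, chrX:94541976-94542275, minus strand: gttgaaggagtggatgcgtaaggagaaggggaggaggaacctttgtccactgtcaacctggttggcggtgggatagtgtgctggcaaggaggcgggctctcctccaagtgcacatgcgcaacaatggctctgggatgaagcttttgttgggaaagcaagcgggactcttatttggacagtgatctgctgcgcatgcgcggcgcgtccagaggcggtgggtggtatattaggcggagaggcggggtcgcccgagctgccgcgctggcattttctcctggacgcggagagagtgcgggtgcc
Nek8, chr11:78176617-78176916, minus strand: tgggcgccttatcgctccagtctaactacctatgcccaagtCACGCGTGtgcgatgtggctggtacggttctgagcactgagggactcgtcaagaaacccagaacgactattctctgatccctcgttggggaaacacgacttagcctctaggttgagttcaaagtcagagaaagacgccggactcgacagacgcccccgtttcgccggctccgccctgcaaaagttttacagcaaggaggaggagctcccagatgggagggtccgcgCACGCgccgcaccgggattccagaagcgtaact
Spata5l1, chr2:122630375-122630674, plus strand: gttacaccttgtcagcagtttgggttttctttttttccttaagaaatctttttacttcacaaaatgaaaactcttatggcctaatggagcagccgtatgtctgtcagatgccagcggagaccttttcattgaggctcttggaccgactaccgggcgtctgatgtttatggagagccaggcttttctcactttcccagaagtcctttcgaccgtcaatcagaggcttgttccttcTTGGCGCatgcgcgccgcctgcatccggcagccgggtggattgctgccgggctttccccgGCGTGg
Ercc8, chr13:108158488-108158787, plus strand: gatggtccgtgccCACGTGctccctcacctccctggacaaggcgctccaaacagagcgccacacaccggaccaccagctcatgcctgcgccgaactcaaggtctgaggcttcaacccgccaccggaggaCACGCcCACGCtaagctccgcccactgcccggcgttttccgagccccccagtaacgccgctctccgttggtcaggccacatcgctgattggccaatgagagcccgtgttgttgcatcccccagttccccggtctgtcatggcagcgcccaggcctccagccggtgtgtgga
Maged1 had 0 hypoxia elements, Nek8 had 3, Spata5l1 had 1 and Ercc8 had 4, and the single E2F match was in Spata5l1; matches that overlap on the 2 strands are counted separately.

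Over all opposite movers with a RefSeq promoter, a hypoxia element was found in 63.4% of 399 promoters of the genes higher in BV2, in 66.1% of 569 promoters of the genes lower in BV2 and in 61.5% of 11308 promoters of tested genes, so its share was close to the background in both directions. The E2F site, the element of cell cycle genes, was found in 9.52%, 21.6% and 14.2% in that order. The cyclic AMP response element (TGACGTC) was found in 2.76%, 10.2% and 5.38%, and the AP-1 element (TGACTCA or TGAGTCA) in 4.26%, 1.41% and 3.79%. For the CCAAT box the shares were 34.3%, 42.2% and 39.1%, and for the CACGTG box, which contains the hypoxia element, 11.3%, 12.3% and 9.96%. All motifs were searched on both strands, and a match describes letters in this window, not binding.

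Among the genes that rose in BV2 and fell in GL261, the 8 with the largest smaller effect of the 2 lines were named by rule. Celsr1, an adhesion receptor of planar cell polarity (chr15:85898929-86033777, minus strand), stood at 69.4 and 68 CPM in normoxic and 205 and 211 CPM in hypoxic BV2, and at 1.22 and 1.33 CPM in normoxic and 0.214 and 0.25 CPM in hypoxic GL261. Its direction differed between the lines, but it was close to 1 CPM or below in every GL261 library. Maged1, a MAGE family protein of cell death signalling (chrX:94535474-94542143, minus strand), went from 396 and 467 to 1292 and 1281 CPM in BV2. GL261 went from 869 and 922 to 279 and 309 CPM, so that GL261 held more in normoxia and BV2 more in hypoxia. Rassf8, a Ras association domain protein (chr6:145746748-145821079, plus strand), went from 75.3 and 74.8 to 226 and 245 CPM in BV2. GL261 went from 57.2 and 69.3 to 19.4 and 24.7 CPM. The 2 lines started from Rassf8 levels that lay close together and ended far apart. Gsn, which encodes the actin-severing protein gelsolin (chr2:35256380-35307892, plus strand), rose most in BV2 among the 8, from 208 and 215 to 2041 and 1982 CPM, and fell from 190.2 and 182 to 72.4 and 73.6 CPM in GL261. Mtss1, a protein that bends membranes at actin-rich edges (chr15:58941234-59082005, minus strand), stood at 134 and 158 CPM in normoxic and 484 and 503 CPM in hypoxic BV2, and at 9.68 and 13.8 and 5.88 and 3.65 CPM in GL261. For Gsn as for Rassf8, both lines were within a narrow range of each other in normoxia. Nek8, a kinase of the primary cilium (chr11:78166106-78176675, minus strand), went from 5.04 and 4.19 to 17.7 and 15.2 CPM in BV2. GL261 went from 14.2 and 15.6 to 4.92 and 6.1 CPM. Zfp467, a zinc finger protein (chr6:48427697-48445825, minus strand), went from 14.1 and 14.8 to 35.8 and 38.2 CPM in BV2. GL261 went from 20.1 and 21.9 to 7.42 and 8.15 CPM. Faah, the enzyme that breaks down anandamide (chr4:115967145-116017926, minus strand), went from 15.1 and 14.4 to 42.4 and 51.3 CPM in BV2. GL261 went from 24.9 and 21 to 8.81 and 10.3 CPM. For Nek8, Zfp467 and Faah, as for Maged1, GL261 was the higher line in normoxia and BV2 in hypoxia, and for all 8 the normoxic and hypoxic libraries of a line did not overlap, which the naming rule required.

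In the reverse direction, Spata5l1, an ATPase of the AAA family (chr2:122630625-122632930, plus strand), led the list. It was also among the 3 most negative interactions of genes that met the naming rule's limits on abundance and overlap of libraries. Its entry is annotated as a processed transcript, not as protein coding. It stood at 18.9 and 16.8 CPM in normoxic and 3.62 and 4.51 CPM in hypoxic BV2, and at 7.62 and 7.13 CPM in normoxic and 24.5 and 21.3 CPM in hypoxic GL261. Ercc8, which encodes the repair protein CSA of transcription-coupled DNA repair (chr13:108158731-108195364, plus strand), went from 15.4 and 16.4 to 3.75 and 4.03 CPM in BV2. GL261 went from 6.86 and 6.0 to 16.5 and 16.3 CPM. For both genes the order of the lines turned: BV2 was the higher line in normoxia and GL261 in hypoxia. Zbtb2, a zinc finger transcription regulator (chr10:4367075-4388108, minus strand), rose most in GL261 among the 8, from 23.5 and 28.5 to 100.2 and 81.7 CPM, and fell from 18.1 and 23 to 7.37 and 9.2 CPM in BV2. Ctps, the CTP synthase of pyrimidine synthesis (chr4:120539868-120570276, minus strand), fell from 113 and 124 to 32.3 and 28 CPM in BV2. GL261 stood at 109 and 97.8 CPM in normoxia and 316 and 187 CPM in hypoxia. The 2 hypoxic GL261 libraries of Ctps lay further apart than those of the other 7 genes, with replicate 1 the higher. Sco1, a copper chaperone of cytochrome c oxidase (chr11:67052670-67067070, plus strand), went from 30 and 27 to 11 and 12.6 CPM in BV2. GL261 went from 10.7 and 11.7 to 40.6 and 29.8 CPM. Usp24, a deubiquitinating enzyme (chr4:106316213-106441322, plus strand), went from 146 and 171 to 58.4 and 68.6 CPM in BV2. GL261 went from 70.1 and 69.9 to 177 and 153 CPM. Both changed place between the lines, with BV2 higher in normoxia and GL261 higher in hypoxia. Spry4, an inhibitor of receptor tyrosine kinase signalling (chr18:38586247-38601415, minus strand), went from 11.1 and 12.3 to 3.05 and 4.63 CPM in BV2. GL261 went from 7.47 and 8.07 to 23.4 and 14.5 CPM. Slc16a6, a carrier of the monocarboxylate transporter family (chr11:109450855-109473598, minus strand), went from 69.8 and 73.4 to 21.2 and 21.9 CPM in BV2. GL261 went from 6.96 and 6.94 to 20.7 and 14.5 CPM. Exons of Slc16a6 overlap those of Amz2 and Arsg on the other strand, and the strand setting of the counting is not given in the sources used here, so part of its counts may belong to them.

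**Figure D2:**
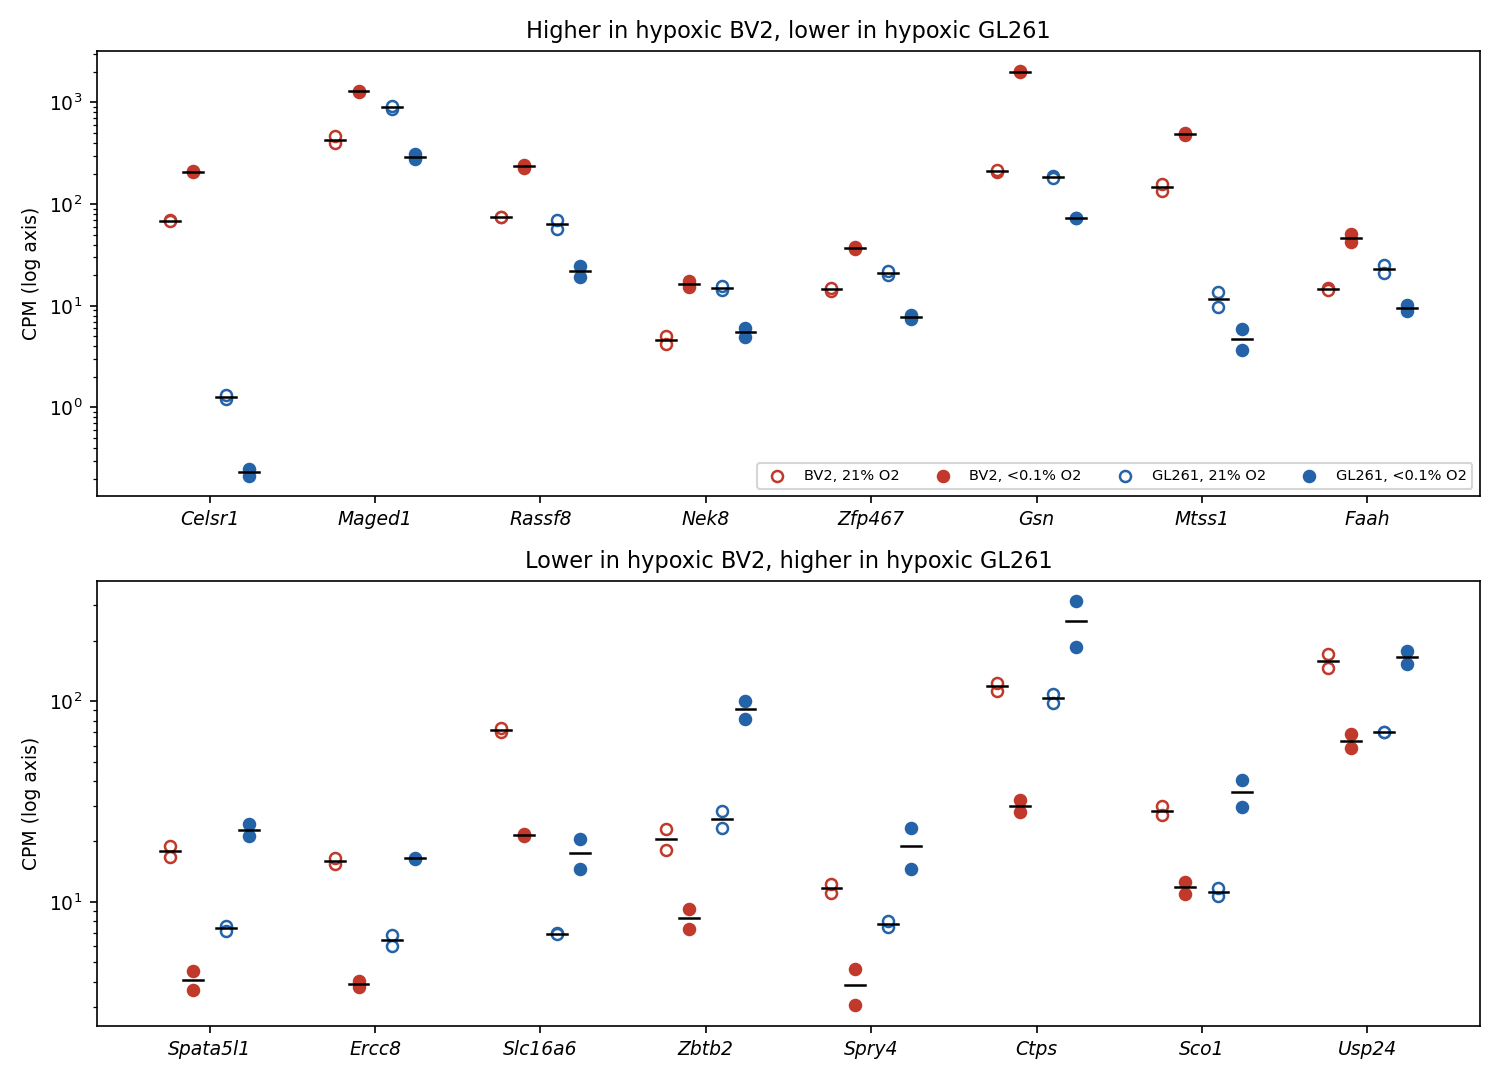
Each point is 1 monoculture library and each bar the mean of 2, as CPM on a log axis, for the 8 named genes of each direction; open symbols are 21% oxygen, filled symbols under 0.1% oxygen, red BV2 and blue GL261. In the upper panel red goes up and blue goes down, as for Gsn from 208 and 215 to 2041 and 1982 CPM in BV2; in the lower panel the order is the reverse.

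The 3 largest interactions of either sign, among genes at or above 3 in mean log2 CPM and without overlap of libraries, were not all opposite movements. Selenbp1, which encodes a selenium-binding methanethiol oxidase (chr3:94933056-94944758, plus strand), went from 11.9 and 9.98 to 1382 and 1122 CPM in BV2. GL261 went from 5.78 and 6.54 to 7.31 and 10.9 CPM, and this change of 0.55 ± 0.23 on the log2 scale did not pass (edgeR adjusted p = 0.063). Of the 75-base words of Selenbp1, 29.87% also occur in Selenbp2, so reads could have been split between them. Lims2, a focal adhesion adaptor (chr18:31922290-31958619, plus strand), went from 1.23 and 0.802 to 36 and 33.1 CPM in BV2. GL261 went from 17.9 and 26.2 to 7.02 and 13.3 CPM. Exons of Lims2 overlap those of the glial gene Gpr17 on the other strand. L1cam, a neural adhesion molecule (chrX:73853778-73896105, minus strand), had 0 and 1 reads in the 2 normoxic BV2 libraries and 8 and 11 in the hypoxic ones, too few for a fold change, and fell from 696 and 788 to 497 and 467 CPM in GL261. On the negative side, Rtn4ip1, a mitochondrial oxidoreductase (chr10:43901807-43957201, plus strand), fell from 16.5 and 17.4 to 1.84 and 2.04 CPM in BV2 and rose from 24.9 and 25.4 to 59.8 and 51.2 CPM in GL261. Its exons overlap those of Crybg1 on the other strand. Pif1, a DNA helicase (chr9:65587160-65595967, plus strand), fell from 50.6 and 57.2 to 2.16 and 3.73 CPM in BV2, while in GL261 it stood at 31.9 and 27.8 CPM in normoxia and 25.6 and 24.2 CPM in hypoxia (adjusted p = 0.27).

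To see which pathways the opposite movers belong to, 33 lists of genes were counted, each beside the shares of all tested genes. Of the 1246 opposite movers, 100 were in at least 1 list and 1146 in none, so the lists cover a small part of them. Where a count of 0 is given for a list from edgeR's test, it was also 0 at an unadjusted p under 0.05 and by DESeq2, unless said otherwise. Of all tested genes, 28.5% rose and 21.5% fell in BV2, 23.1% rose and 20.4% fell in GL261, and 18.7% had a called interaction of each sign. Opposite movers were 3.18% of all tested genes with BV2 higher and 4.2% with BV2 lower. Members named without their library values were picked out after those values were seen. Mitosis genes held the most opposite movers of any list. Of 64 mitosis genes, 63 fell and 0 rose in BV2, with a median of -1.54, while in GL261 23 rose, 10 fell and the median was 0.21. 62 of 64 had an interaction below 0 that passed, and 22 were opposite movers, against 4.2% of all genes in that direction. The exceptions to the fall in BV2 and to the interaction were Bub1, at -0.04 in BV2 and 0.98 in GL261, and Cdc25b and Cenpa, whose interactions did not pass. Cenpe, the motor that carries chromosomes along the spindle, went from 255 and 313 to 77.7 and 76.8 CPM in BV2. GL261 went from 190.4 and 177 to 532 and 311 CPM. Knl1, a scaffold of the kinetochore, went from 72.8 and 89.3 to 31.1 and 34.9 CPM in BV2. GL261 went from 47.4 and 58.6 to 134 and 88.1 CPM. Sgo1, which protects sister chromatid cohesion, went from 64.4 and 59.2 to 27.3 and 27.5 CPM in BV2. GL261 went from 70.5 and 76.7 to 172 and 126 CPM. In all 3 the hypoxic GL261 libraries lay above the normoxic ones, replicate 1 further than replicate 2. Other opposite movers of the list included the mitotic kinase Aurka (-2.21 in BV2 and 1.02 in GL261, log2), the cytokinesis activator Ect2 (-1.98 in BV2 and 1.01 in GL261), the kinetochore protein Ndc80 (-1.12 in BV2 and 0.86 in GL261) and the proliferation antigen Mki67 (-0.98 in BV2 and 0.74 in GL261). The 10 genes that fell in both lines were Cdk1, Ccnb2, Mad2l1, Cdc25b, Kif2c, Cenpa, Cenpm, Espl1, Ube2c and Pttg1, among them the mitotic kinase, a cyclin and the securin, so GL261 did not raise the programme as a whole.

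Summed over the 64 genes, mitosis transcripts stood at 10440.2 and 10958 CPM in normoxic and 4198 and 3976 CPM in hypoxic BV2, and at 10009.9 and 9954 CPM in normoxic and 14404 and 10703 CPM in hypoxic GL261. The BV2 groups lay far apart, while in GL261 1 hypoxic library lay well above the normoxic pair and the other only a little above. The rise in GL261 therefore rested on hypoxic replicate 1: without it 10 of the 64 rose and 13 fell, the median turned to -0.10 and 9 opposite movers were left, whereas without hypoxic replicate 2 there were 25, and without normoxic replicate 1 or 2 there were 14 or 15. The 10 falls in GL261 became 6 without hypoxic replicate 2 or without normoxic replicate 1, and the 23 rises became 15 without the latter. The fall in BV2 held at 63 of 64 with any 1 library left out. In bulk RNA, fewer dividing cells and less of these transcripts per cell cannot be told apart.

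DNA replication showed the same fall in BV2 with a mixed picture in GL261. Of 49 genes, 47 fell and 0 rose in BV2 (median -1.25), and in GL261 10 rose and 16 fell (median -0.03). 41 had a negative interaction that passed, and 9 were opposite movers, against 4.2% of all genes in that direction. The 10 rises in GL261 were a smaller share than the 23.1% of all genes. Summed over the list the libraries stood at 8309 and 8290.3 CPM in normoxic and 3817 and 3461 CPM in hypoxic BV2, and at 4627 and 4473 CPM and 4784 and 4006 CPM in GL261, where the 2 groups overlapped. Orc2, a subunit of the origin recognition complex, went from 116 and 118 to 19.7 and 21.6 CPM in BV2. GL261 went from 61.7 and 61.5 to 115 and 94.9 CPM. Rfc4, a subunit of the clamp loader, went from 58.8 and 53.6 to 27.4 and 24.4 CPM in BV2 and from 31.1 and 28.1 to 48.7 and 46.7 CPM in GL261. Mcm3, a subunit of the replicative helicase, went from 514 and 530.0 to 238 and 201 CPM in BV2 and from 197 and 176 to 325 and 248 CPM in GL261. No line's groups overlapped for these 3. Orc2 overlaps Nif3l1 and Rfc4 overlaps Eif4a2 on the other strand. The opposite movers here were mostly origin, clamp loader and initiation factors (Orc2, Orc6, Rfc1, Rfc3, Rfc4, Cdt1, Mcm3, Pola1, Clspn), while enzymes of nucleotide supply such as Rrm2 and Tk1 fell in both lines. Their number also rested on GL261: it was 3 without hypoxic replicate 1, 11 without hypoxic replicate 2, 5 without normoxic replicate 1 and 4 without normoxic replicate 2, and 5 with upper-quartile factors. The 10 rises in GL261 became 3, 11, 6 and 5 without the same 4 libraries in turn, and the 16 falls became 10 without hypoxic replicate 2. Of 36 genes of homologous recombination and the Fanconi anaemia pathway, 28 fell and 1 rose in BV2, and 11 rose and 11 fell in GL261, with a median of 0.10 that other scalings took to -0.05. 23 had a negative and 3 a positive interaction. Fancm, a translocase of stalled forks, stood at 35.2 and 45.2 CPM and 20.5 and 29.2 CPM in BV2. GL261 stood at 25.1 and 29.9 CPM in normoxia and 61.5 and 41.6 CPM in hypoxia. Rbbp8, which starts resection of DNA ends, went from 50 and 54.7 to 30.9 and 33.5 CPM in BV2 and from 54 and 52.4 to 84.5 and 77.9 CPM in GL261. The groups of a line did not overlap for either gene. Brca2, a protein of homologous recombination, was a further opposite mover with -0.58 in BV2 and 1.03 in GL261, and the mismatch repair gene Msh6 went the other way with 1.00 in BV2 and -0.38 in GL261. The 8 opposite movers lower in BV2 became 3 without BV2 hypoxic replicate 1, 4 without BV2 normoxic replicate 2 and 5 without GL261 hypoxic replicate 1, which also took the 11 rises in GL261 to 6.

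Genes that build ribosomes also fell in BV2. Of 50 genes of ribosome biogenesis, 46 fell in BV2 and 0 rose (median -1.27), and in GL261 7 rose and 21 fell (median -0.21), with 42 negative interactions and 6 opposite movers. The 7 rises in GL261 were a smaller share than the 23.1% of all genes. So the 6 opposite movers, beside 4.2% of all genes in that direction, do not show a rise of the list in GL261. Without GL261 hypoxic replicate 1 or either normoxic GL261 library, 3 rose in GL261 and 2 were opposite movers, and without BV2 normoxic replicate 2 these were 4 and 3. Nop58, a core protein of box C/D snoRNPs, went from 414 and 408 to 187 and 174 CPM in BV2. GL261 went from 244 and 187 to 382 and 371 CPM. Of 74 mitochondrial ribosomal protein genes, 64 fell in BV2 and 0 rose (median -0.95), and in GL261 12 rose and 25 fell (median -0.16), with 44 negative and 3 positive interactions and 10 opposite movers. Here too the rises in GL261 were a smaller share than the 23.1% of all genes. Without GL261 hypoxic replicate 1, 6 rose in GL261 and 5 were opposite movers, and without GL261 normoxic replicate 2 these were 5 and 4. Mrpl47, a protein of its large subunit, went from 19.2 and 18.6 to 9.08 and 7.64 CPM in BV2. GL261 went from 19.98 and 20.1 to 29.2 and 31.1 CPM. Mrpl47 has overlapping exons with Actl6a and Ndufb5 on the other strand. Of 20 aminoacyl-tRNA synthetases, 15 rose and 1 fell in GL261 (median 0.77), against 7 and 6 in BV2 (median 0.15, which other scalings took to -0.02). 13 had a negative and 1 a positive interaction. Mars, the methionyl-tRNA synthetase, stood at 126 and 129 CPM and 77 and 79.9 CPM in BV2. GL261 stood at 158 and 165 CPM in normoxia and 258 and 234 CPM in hypoxia. Mars overlaps Ddit3, itself a stress-induced gene, on the other strand. Shmt2, the mitochondrial serine hydroxymethyltransferase of one-carbon supply and a target of the stress factor ATF4, fell from 389 and 337 to 192 and 169 CPM in BV2 and rose from 289 and 277 to 569 and 567 CPM in GL261. Exons of Shmt2 overlap those of Ndufa4l2 on the other strand. It was the only opposite mover among 26 ATF4 targets, of which 19 rose and 1 fell in BV2 and 26 rose in GL261. Gmps, a purine enzyme, with -0.78 in BV2 and 0.39 in GL261, was the other opposite mover among 19 purine and folate genes, of which 15 fell in BV2 and 11 in GL261.

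The lysosome moved in the other sense. Of 50 lysosomal and lysosome-regulating genes, 36 rose and 3 fell in BV2 (median 0.73), and 9 rose and 19 fell in GL261 (median -0.16). 34 had a positive interaction that passed and 3 a negative one, and 12 rose in BV2 and fell in GL261, against 3.18% of all genes in that direction. Ctsa, the protective carboxypeptidase cathepsin A, went from 856 and 834 to 2149 and 1980.4 CPM in BV2. GL261 went from 125 and 134 to 58.8 and 66.1 CPM. Glb1, the acid beta-galactosidase, went from 87.6 and 92.8 to 193 and 209.6 CPM in BV2. GL261 went from 33 and 34.8 to 17.1 and 16.4 CPM. Ctsb, the cysteine protease cathepsin B, went from 1980.0 and 1700.0 to 3172 and 3142 CPM in BV2. GL261 went from 133 and 127 to 85.4 and 67.5 CPM. All 3 were already far higher in BV2 in normoxia, and hypoxia widened the gap. Others of the 12 were the hydrolases Ctsd, Gaa, Man2b1, Ppt1 and Tpp1, the sphingolipid activator precursor Psap and the cholesterol carrier Npc2, whose log2 values ran from 0.32 (Tpp1) to 0.98 (Psap) in BV2 and from -0.33 (Gaa) to -0.65 (Ppt1) in GL261. Lamp1 and Gusb fell in both lines (-0.43 in BV2 and -0.56 in GL261 for Lamp1, -0.40 in BV2 and -1.96 in GL261 for Gusb), and of the regulators Tfe3 and Mitf rose in both (0.45 in BV2 and 0.98 in GL261 for Tfe3, 0.75 in BV2 and 0.77 in GL261 for Mitf). The cathepsin Ctsl, which rose in GL261, was at 0.20 in BV2 and 1.14 in GL261, so the fall in GL261 did not cover the whole organelle. Summed over the list, BV2 held 21135 and 20396 CPM in normoxia and 32364 and 32889 CPM in hypoxia, and GL261 4184 and 4361 CPM and 4178 and 3992 CPM, where the 2 groups lay close together. Ctsa shares overlapping exons with Neurl2 and Pltp, Ctsb with Fdft1 and Ppt1 with Cap1 on the other strand, and 31.29% of the words of Ctsd recur elsewhere. With any 1 library left out, 7 to 11 opposite movers were counted in the list, 7 without GL261 hypoxic replicate 2, and without GL261 normoxic replicate 1 the 9 rises in GL261 became 5. Of 30 autophagy genes, 23 rose and 1 fell in BV2 and 16 rose and 1 fell in GL261, and Ulk2, a kinase that starts autophagy, was the only opposite mover (1.18 in BV2 and -0.56 in GL261). Wipi1, which binds phosphoinositides on the growing autophagosome, rose from 1.53 and 1.96 to 30.5 and 34.6 CPM in BV2. GL261 went from 46.6 and 53.3 to 69.2 and 72.3 CPM.

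**Figure D3:**
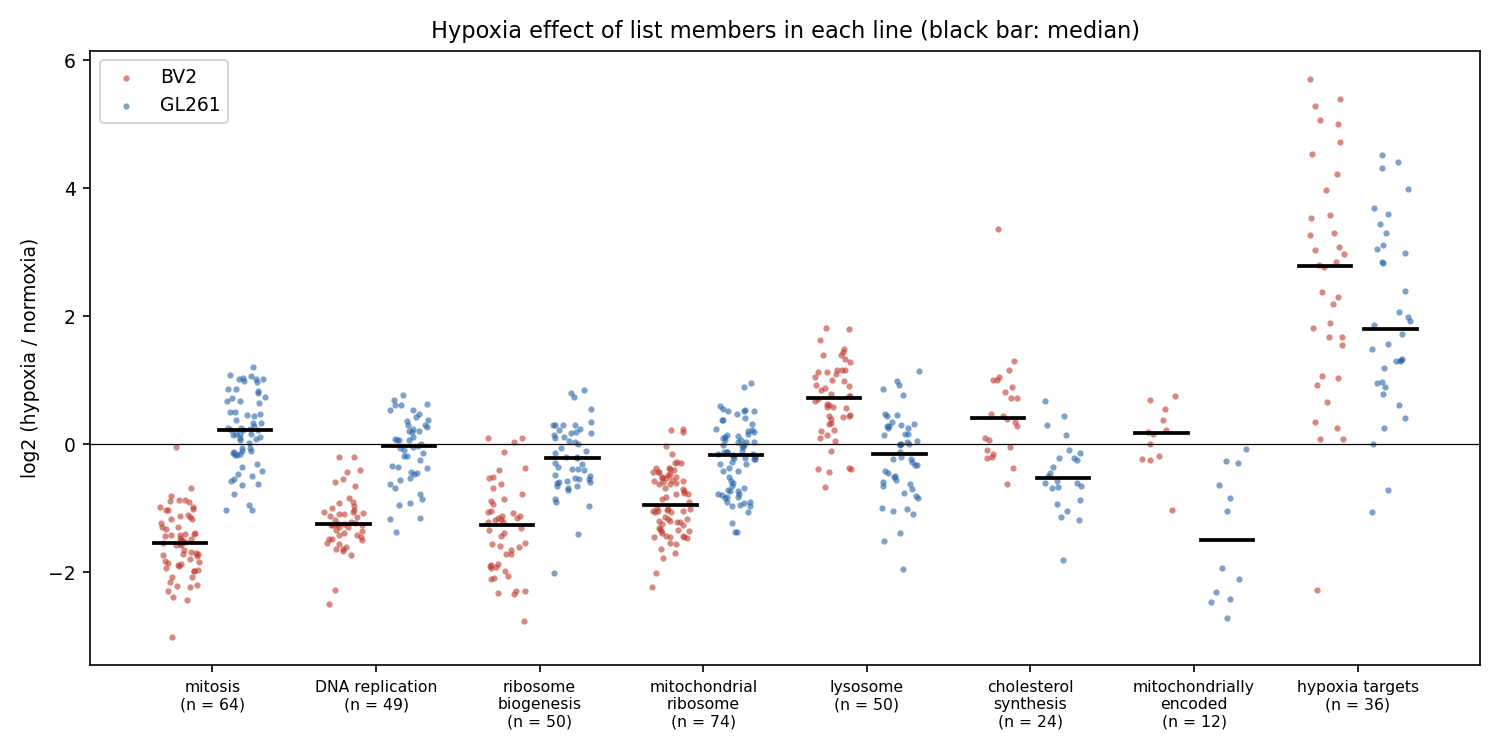
Each point is 1 gene of 8 lists, with its log2 fold change of hypoxia over normoxia in BV2 (red) and GL261 (blue) on the y axis, and the bar is the list's median. The medians were -1.54 and 0.21 for mitosis, 0.73 and -0.16 for the lysosome and 0.17 and -1.49 for mitochondrially encoded genes, while hypoxia targets rose in both lines (2.78 and 1.79).

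Cholesterol synthesis also rose in BV2 and fell in GL261, on fewer genes. Of 24 genes, 13 rose and 1 fell in BV2 (median 0.41), and 2 rose and 12 fell in GL261 (median -0.54), with 13 positive interactions and 5 opposite movers. Sqle, the squalene epoxidase, went from 270.5 and 384 to 591 and 620.0 CPM in BV2. GL261 went from 173 and 194 to 113 and 77.7 CPM. Nsdhl, a sterol dehydrogenase, went from 69.7 and 75.8 to 113 and 126 CPM in BV2. GL261 went from 32.9 and 24.6 to 14.8 and 10.4 CPM. Fdps, the farnesyl diphosphate synthase, went from 7.46 and 8.78 to 15.1 and 18.6 CPM in BV2. GL261 went from 6.16 and 4.28 to 3.46 and 3.0 CPM. None of the 3 had overlapping groups in either line, but 23.5% of the words of Fdps recur in other genes. Tm7sf2, a sterol reductase (0.72 in BV2 and -0.68 in GL261), and Fdft1, the squalene synthase (1.00 in BV2 and -0.46 in GL261), completed the 5. Fdft1 overlaps Ctsb on the other strand, and these 2 opposite movers of different lists may share counts. The number of opposite movers was 3 without GL261 hypoxic replicate 2 and 2 without GL261 normoxic replicate 1, and 12 falls in GL261 became 7 and 8. The 13 rises in BV2 became 8 without BV2 hypoxic replicate 2 or without BV2 normoxic replicate 1, and library totals without scaling factors gave 9 rises and 3 falls.

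Genes of the mitochondrial genome differed between the lines without moving in opposite directions. Of 12 tested, 9 fell and 0 rose in GL261 (median -1.49), and 2 rose and 0 fell in BV2 (median 0.17, which other scalings took to -0.0047). 10 had a positive interaction and 0 were opposite movers (1 at an unadjusted p under 0.05, 0 by DESeq2). Without BV2 normoxic replicate 1, 6 interactions were positive. Summed over the 12, GL261 held 32233 and 32303 CPM in normoxia and 16039 and 16723 CPM in hypoxia, and BV2 17048 and 24182 CPM and 26223 and 22003 CPM, with overlap. mt-Nd4, a subunit of complex I, went from 2266 and 2263 to 379 and 307 CPM in GL261 and stood at 1107 and 1476 CPM and 1512 and 1418 CPM in BV2. 61.5% of its words recur elsewhere. The fall in GL261 was uneven, from -0.63 for mt-Co3 to -2.72 for mt-Nd4 among the 9, and mt-Co1 was at -0.08 (adjusted p = 0.78). Nuclear genes of oxidative phosphorylation fell in both lines, 46 of 70 in BV2 and 50 of 70 in GL261, with 0 opposite movers (1 at an unadjusted p and 1 by DESeq2) and a median interaction of 0.19, close to the 0.15 of all genes. The 46 falls in BV2 became 22 without BV2 hypoxic replicate 2 and 27 without BV2 normoxic replicate 1. Cycs, cytochrome c, was the member with the largest interaction and went from 175 and 150.3 to 34.8 and 32.5 CPM in BV2. GL261 went from 149.7 and 97.9 to 79.8 and 73.1 CPM.

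**Figure D4:**
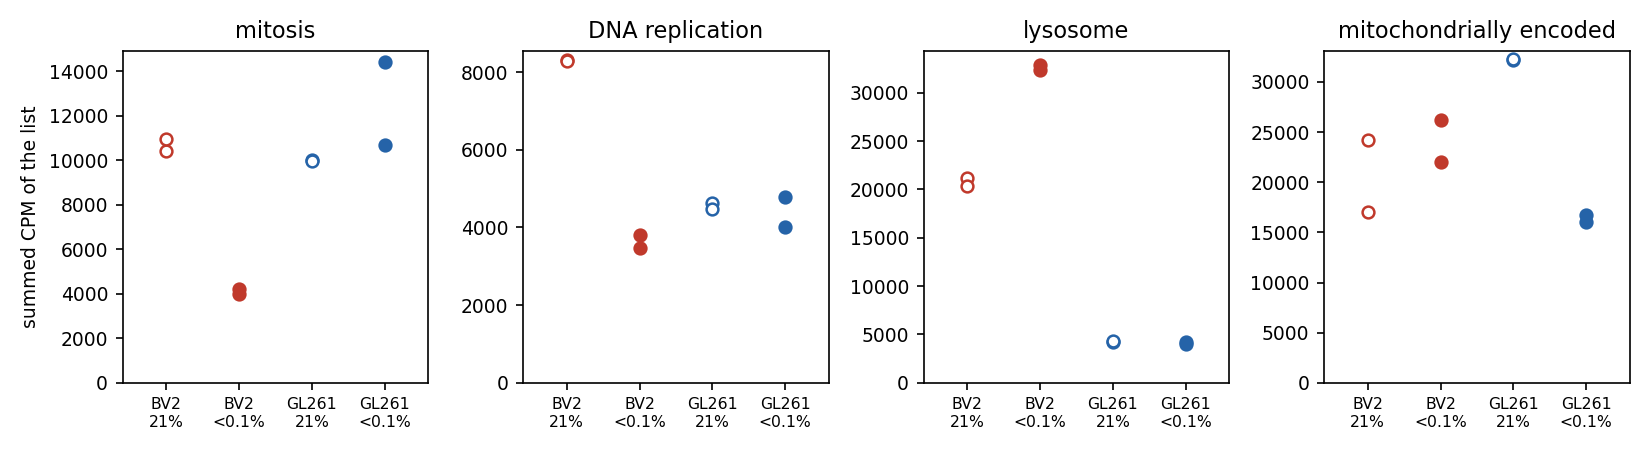
Summed CPM of 4 lists in each monoculture library (y axis, from 0), with BV2 in red, GL261 in blue, open symbols at 21% and filled symbols at under 0.1% oxygen. In mitosis and DNA replication the hypoxic BV2 pair is low and the hypoxic GL261 pair is split; the lysosome total of BV2 is higher in hypoxia, and mitochondrially encoded transcripts are low in both hypoxic GL261 libraries.

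Most hypoxia targets and glycolysis genes rose in both lines, but not always by the same amount. By edgeR's test 0 of the hypoxia targets (1 at an unadjusted p under 0.05, 0 by DESeq2) and 0 of the glycolysis genes were opposite movers. The median interaction of the hypoxia targets was 0.78, above the 0.15 of all genes. Of 36 core hypoxia targets, 30 rose and 1 fell in BV2 (median 2.78) and 29 rose and 1 fell in GL261 (median 1.79), with 15 positive and 6 negative interactions, and of 19 glycolysis genes 18 rose in BV2 and 15 in GL261. Hilpda, which blocks lipid droplet breakdown, differed most: it went from 10.3 and 11.9 to 139 and 119 CPM in BV2. GL261 went from 15.2 and 14 to 17.1 and 17.7 CPM. Aldoc, an aldolase, went from 75.7 and 68.9 to 620.2 and 614 CPM in BV2. GL261 went from 107 and 92.8 to 83.6 and 104 CPM. Neither Hilpda nor Aldoc passed in GL261. The glucose carrier Slc2a1 rose in both lines, by 3.97 ± 0.14 in BV2 and 2.07 ± 0.13 in GL261 (log2), and Bnip3, a mitophagy receptor, by 5.40 ± 0.25 and 4.52 ± 0.25. Egln3, the oxygen sensor that marks HIF for degradation, rose by 5.71 ± 0.19 and 2.84 ± 0.17, and Ccng2, an inhibitory cyclin, by 3.90 ± 0.14 and 1.85 ± 0.13. Of 23 genes of the unfolded protein response, 21 rose in BV2 and 15 rose and 1 fell in GL261, with 17 positive interactions and 0 opposite movers. Sel1l, an adaptor of the degradation complex in the endoplasmic reticulum, went from 132 and 169 to 728 and 1312 CPM in BV2. GL261 went from 100.3 and 112 to 185 and 179 CPM.

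Immune and matrix lists held from 0 to 3 opposite movers each, beside 7.38% of all tested genes. These counts are not read as a feature of the lists. H2-T23, a non-classical class I molecule, went from 18.1 and 13.3 to 50.4 and 48.8 CPM in BV2. GL261 went from 6.91 and 5.51 to 2.89 and 2.2 CPM. It was the only opposite mover among 17 class I genes. Ccl2, the monocyte chemokine, stood at 17 and 14 CPM in normoxic and 2.22 and 3.85 CPM in hypoxic BV2, and at 1.13 and 0.787 CPM and 11.5 and 2.2 CPM in GL261, where the hypoxic pair was wide apart. It was the only opposite mover among 33 cytokine and NF-kappa B genes, of which 14 rose in BV2 (9 without BV2 normoxic replicate 2) and 15 in GL261. Among 36 interferon genes 0 were opposite movers. Cxcl10, an interferon-induced chemokine, went from 19.9 and 8.81 to 398 and 229 CPM in GL261 and stood at 1.91 and 1.11 CPM and 1.65 and 1.56 CPM in BV2, and it overlaps Art3 on the other strand. Fosl1, a partner of Jun in AP-1, went from 31.9 and 36.4 to 10.5 and 14.6 CPM in BV2. GL261 went from 0.987 and 0.492 to 5.45 and 2.6 CPM. Exons of Fosl1 overlap those of Ccdc85b on the other strand. Of the 35 immediate early genes, 25 rose in BV2 and 26 in GL261. Of 39 collagen and matrix genes, 17 rose and 0 fell in BV2 and 12 rose and 6 fell in GL261, with 11 positive interactions and 1 negative one. Without BV2 normoxic replicate 2, 11 rose in BV2, and without GL261 normoxic replicate 1, 7 rose in GL261. Positive interactions were 6 without BV2 hypoxic replicate 2 and 7 without either normoxic BV2 library. Spp1, osteopontin, stood at 2482 and 2582 CPM in normoxic and 5301 and 4935 CPM in hypoxic BV2 and at 14.1 and 8.61 CPM and 6.77 and 3.4 CPM in GL261. Loxl3, a crosslinking oxidase, stood at 0.678 and 0.713 CPM and 1.33 and 1.38 CPM in BV2 and 233 and 217 CPM and 102 and 81.4 CPM in GL261. Each of the 2 was thus abundant in 1 line and scarce in the other, and exons of Loxl3 overlap those of Htra2 on the other strand. Tgfbr2, a receptor of TGF-beta, went from 45 and 58.7 to 75.1 and 88.6 CPM in BV2. GL261 went from 51.1 and 72.1 to 23.1 and 21.5 CPM. Of 23 targets of the antioxidant factor NRF2, 7 rose and 8 fell in BV2 and 6 rose and 13 fell in GL261, and Keap1, the inhibitor of NRF2, fell in BV2 and rose in GL261 (-0.75 in BV2 and 0.41 in GL261). In the other direction, Gstm1, a glutathione transferase, went from 231 and 225 to 422 and 423 CPM in BV2. GL261 went from 34.5 and 21 to 17.2 and 15.6 CPM. Cat, catalase, went from 119.6 and 127 to 204 and 207 CPM in BV2. GL261 went from 82.3 and 84.6 to 45.7 and 43.9 CPM.

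Some cell type markers were opposite movers themselves. Of 20 microglial and macrophage genes, 8 rose and 1 fell in BV2, 3 fell in GL261, and Lyz2 and Cd14 were the opposite movers. In co-culture 6 of the 20 rose and 9 fell in BV2, and 0 of the 2 were opposite again by edgeR's test (1 at an unadjusted p under 0.05, 0 by DESeq2). Lyz2, lysozyme of myeloid cells, went from 191 and 165 to 461 and 396 CPM in BV2. GL261 went from 8.74 and 6.74 to 4.42 and 2.6 CPM. Cd14, the endotoxin co-receptor, went from 52 and 60.4 to 101 and 89.1 CPM in BV2. GL261 went from 6.68 and 3.89 to 2.71 and 1.7 CPM. Of 15 genes tested from a wider glial list, Mbp, Pdgfra and Vim rose in BV2 and fell in GL261. This wider list is less particular to GL261 than the 14 glial markers. It summed to 849 and 744 CPM in normoxic and 3014 and 2780 CPM in hypoxic BV2. Mbp, a myelin protein, went from 3.31 and 3.21 to 7.56 and 8.18 CPM in BV2. GL261 went from 1144 and 989 to 546 and 617 CPM. Both marker lists moved with oxygen in these libraries: the microglial sum of GL261 was 46.2 to 46.8 CPM in normoxia and 31.1 to 34.6 CPM in hypoxia with 4 and 3 of 18 markers at 1 CPM, and the glial sum of BV2 was 1.61 to 2.09 CPM and 2.46 to 4.68 CPM with 0 and 2 of 14 at 1 CPM. The part of a carry-over between lines in these low values was not tested. The remaining lists held at most 2 opposite movers in either direction, among them Gtse1 of the p53 list, which went from 81.7 and 81.4 to 17.9 and 16.6 CPM in BV2. GL261 went from 69.7 and 67.8 to 121 and 78.3 CPM. Psmc5, a proteasome ATPase and no opposite mover, fell in BV2 from 212 and 218 to 96.5 and 79.4 CPM and stood at 171 and 140.3 CPM and 173 and 149.6 CPM in GL261. Hspa8, the constitutive heat shock chaperone, fell in both lines and further in GL261, by 0.98 and 2.65 on the log2 scale, with 32.79% of its words found elsewhere.

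The same lines were also grown together, in co-cultures of 1 BV2 cell to 2 GL261 cells that were fixed and sorted afterwards, with 2 libraries per line and oxygen level. The effects in these 8 libraries did not choose the opposite movers, although the libraries shared the estimate of spread and the filter with the monocultures. Differences between replicates 1 and 2 of hypoxic GL261 correlated at 0.33 between mono- and co-culture. How far the repeats below share such a replicate difference was not tested. Hypoxia moved 56.3% of tested genes in sorted BV2 and 50.4% in sorted GL261. Of the 537 genes, 299 (55.7%) again rose in BV2 and fell in GL261 at an adjusted p under 0.05 in both lines and the interaction, against 3.17% of all tested genes, and 313 of the 709 (44.1%) again did the reverse, against 2.46%. By edgeR's test 0 of the 1246 were reversed in both lines, also 0 at an unadjusted p under 0.05 and by DESeq2. Taken one line at a time, 435 of the 537 rose in BV2 (34.7% of all genes) and 380 fell in GL261 (24.1%), and 446 of the 709 fell in BV2 (21.5%) and 544 rose in GL261 (26.2%), with 6 called the other way in BV2 and 1 in GL261. The interaction passed with the same sign for 499 of the 537 (21.7% of all genes were higher) and 657 of the 709 (15.3% lower), and with the other sign for 0 (also 0 at an unadjusted p under 0.05 and by DESeq2). A direct test of the monoculture interaction against the co-culture interaction passed for 4 genes in all (0.0237%), 2 higher and 2 lower (0.0118% each), 2 of them opposite movers with a smaller interaction in co-culture. Median effects in co-culture were 0.83 in BV2 and -0.67 in GL261 for the 537 genes, and -0.50 and 0.59 for the 709, beside 0.22 and -0.03 for all genes. Sorted co-culture libraries held traces of the partner: transcripts typical of GL261 made up 0.655% to 1.07% of their GL261 level in normoxic and 2.70% to 3.07% in hypoxic BV2, and transcripts typical of BV2 0.586% to 0.874% in normoxic and 0.187% to 0.228% in hypoxic GL261, against at most 0.0575% in monocultures, where the level in the partner's monoculture at the same oxygen is the whole. Without genes at least 4-fold apart between the lines, 132 of 245 (53.9%) and 228 of 525 (43.4%) were opposite again. The first count, 299, was 165 without hypoxic replicate 1 of GL261 co-culture and also dropped by more than 1.5 times without any 1 of 7 others: the normoxic libraries of BV2 co-culture, GL261 co-culture and GL261 monoculture, and normoxic replicate 2 of BV2 monoculture. It was at most 266 with 1 library left out. The second, 313, was 485 without hypoxic replicate 2 of GL261 monoculture and at least 224 with any 1 left out. Where a monoculture library was left out, the opposite movers were chosen anew.

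Named genes differed in how firmly co-culture repeated them (log2 fold change ± SE, 2 libraries per group, edgeR). Maged1 was at 1.69 ± 0.16 in BV2 (adjusted p = 6.0e-08) and -1.41 ± 0.16 in GL261 (adjusted p = 9.1e-07), and Rassf8 at 1.90 ± 0.20 in BV2 (adjusted p = 2.1e-07) and -1.16 ± 0.20 in GL261 (adjusted p = 9.9e-05). Gsn was at 3.11 ± 0.14 in BV2 (adjusted p = 7.4e-12) and -0.65 ± 0.13 in GL261 (adjusted p = 3.3e-04) beside -1.35 in GL261 monoculture. Celsr1 was at 1.74 ± 0.12 in BV2 (adjusted p = 2.0e-09) and -0.49 ± 0.28 in GL261 (adjusted p = 0.20), so its fall in GL261 did not pass there. GL261 held few Celsr1 transcripts and the partner held many. Of the reverse direction, Spata5l1 was at -1.18 ± 0.17 in BV2 (adjusted p = 1.4e-05) and 1.77 ± 0.17 in GL261 (adjusted p = 1.6e-07), Ercc8 at -1.16 ± 0.18 in BV2 (adjusted p = 2.7e-05) and 0.72 ± 0.18 in GL261 (adjusted p = 0.0025) and Rtn4ip1 at -1.65 ± 0.16 in BV2 (adjusted p = 7.9e-08) and 1.24 ± 0.13 in GL261 (adjusted p = 4.9e-07). Zbtb2 was at -0.36 ± 0.17 in BV2 (adjusted p = 0.083) and 1.92 ± 0.16 in GL261 (adjusted p = 2.8e-08), and Spry4 at 0.06 ± 0.28 in BV2 (adjusted p = 0.89) and 1.76 ± 0.23 in GL261 (adjusted p = 6.1e-06), so these 2 rose in GL261 again while BV2 did not pass. Nek8, Zfp467, Mtss1, Faah, Slc16a6, Ctps, Sco1 and Usp24 passed in both lines with the signs they had in monoculture.

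By list, most mitosis and replication genes fell again in BV2 in co-culture. Of the 64 mitosis genes, 63 fell in BV2 in co-culture, 61 had a negative interaction, and in GL261 20 rose and 20 fell (median -0.11), and 18 of the 22 opposite movers were opposite again. For Cenpe, Knl1 and Sgo1, replicate 1 of hypoxic GL261 was again the higher in co-culture. The pairs were 455 and 293, 134 and 105, and 161 and 141 CPM in that order. Whether the GL261 side of a list differed between mono- and co-culture was not tested. Of the 49 replication genes, 49 fell in BV2, 7 rose and 20 fell in GL261, and 6 of the 9 were opposite again, as were 6 of the 8 repair genes lower in BV2. Of the 50 lysosomal genes, 37 rose and 5 fell in BV2, 17 rose and 19 fell in GL261 (median -0.02), 35 had a positive interaction, and 7 of the 12 were opposite again. Cholesterol genes were repeated in part: 8 rose and 3 fell in BV2, 7 rose and 9 fell in GL261, 10 interactions were positive and 1 negative, the median interaction was 0.03, below the 0.26 of all genes in co-culture, and 2 of the 5 were opposite again. Of the 12 mitochondrially encoded genes, 11 fell in GL261 and 3 rose in BV2, with 11 positive interactions and a median of 2.6. Of the 10 mitochondrial ribosome genes 4 were opposite again, and of the 6 ribosome biogenesis genes 0 by edgeR's test (1 at an unadjusted p under 0.05, 1 by DESeq2). Of the 20 aminoacyl-tRNA synthetases, 14 rose in each line, and 0 of the 3 were opposite again by edgeR's test (1 at an unadjusted p under 0.05, 1 by DESeq2).

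**Figure D5:**
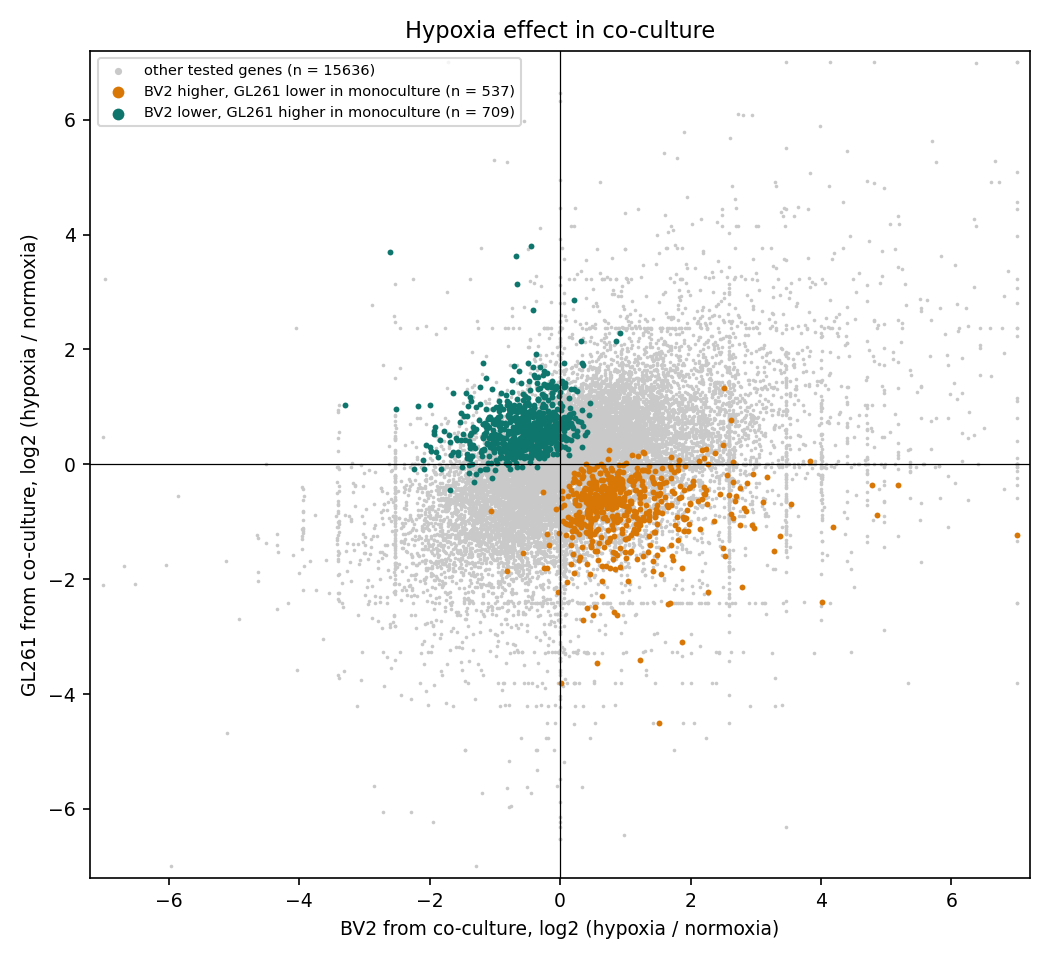
The same genes and colours as in the plot of monoculture effects, with log2 fold changes of hypoxia over normoxia in BV2 (x axis) and GL261 (y axis) sorted from co-culture; values beyond the axes are drawn at the edge. The genes chosen in monoculture stay mostly in their quadrant, with medians of 0.83 and -0.67 for the 537 orange genes and -0.50 and 0.59 for the 709 green genes, and some lie near or past an axis.

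BV2 was exposed to low oxygen a second time in a separate experiment with the solvent DMSO, again with 2 libraries per oxygen level and a fit of its own. That fit also held 2 hypoxic BV2 libraries with panobinostat, which entered the filter, the scaling and the estimate of spread but not the contrast. Of the 508 genes higher in BV2 monoculture and tested there, 181 rose (35.6%, against 17.2% of all genes) and 1 fell, and of the 707 lower ones 453 fell (64.1%, against 20.2%) and 0 rose by edgeR's test, at an unadjusted p under 0.05 or by DESeq2. Without hypoxic replicate 1 of that experiment these were 107 and 241, and without normoxic replicate 2 the second was 270. The lists divided: 63 of 64 mitosis genes and 44 of 49 replication genes fell with DMSO, whereas 6 of 50 lysosomal genes rose and 5 fell, and 4 of 23 cholesterol genes rose and 2 fell. Whether the 2 BV2 experiments differed was not tested. Among named genes, Gsn was at 2.80 ± 0.29 (adjusted p = 2.1e-04), Spata5l1 at -2.13 ± 0.34 (adjusted p = 0.0014), Ctsa at 0.45 ± 0.28 (adjusted p = 0.22) and Faah at 0.21 ± 0.27 (adjusted p = 0.57). In primary bone marrow-derived macrophages in monoculture, given as a description of another myeloid cell, 122 of 519 rose (23.5%, against 13.3%) and 15 fell, and 186 of 706 fell (26.3%, against 10.6%) and 7 rose. There 51 of 64 mitosis genes fell, as in BV2, but 13 of 24 cholesterol genes fell.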

How the data were processed

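The authors deposited raw counts of reads per Ensembl gene, 55487 genes per library, as tables of whole libraries; the submitters' processing notes name Trimmomatic 0.36, STAR 2.6, Picard 2.17.1, SAMtools, HTSeq 0.9.1, deepTools and the build mm10, without roles or order, and the annotation and strand setting are not given in the sources used here. Per the labels' protocols the kit was stranded and selected poly(A) RNA. Libraries were grouped by their labels. The 8 monoculture libraries held 17503500 to 27238900 counts and the 8 co-culture libraries 13548800 to 18516100. By library totals without TMM factors, 3 counts correspond to 0.110 to 0.221 CPM.

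From these counts, edgeR 4.0.16 (R 4.3.3) fitted the 16 BV2 and GL261 libraries with 1 mean per group, TMM factors and filterByExpr defaults (minimum count 10, minimum total 15), and quasi-likelihood tests gave contrasts; SE is the effect divided by the square root of F, and p-values were adjusted by Benjamini-Hochberg over all tested genes. With 2 libraries per group, the spread was shared across groups and genes. An opposite mover had an adjusted p under 0.05 in both lines, with opposite signs, and in the interaction. The BV2 libraries of the DMSO experiment, with 2 panobinostat libraries among them, and the macrophage libraries, with co-cultures among them, were fitted separately. The method was also run on simulated counts. Their libraries were drawn independently, so that run cannot speak to differences shared by real libraries. Replicate pairs of the BV2 and GL261 groups differed by 6.12 to 33.1 times the chi-square expected from counting noise, so no library was a copy of its replicate. Copies across groups or among the DMSO and macrophage libraries were not looked for.

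Named genes were, per direction, the 8 opposite movers with the largest smaller effect of the 2 lines, at a mean log2 CPM of at least 3 and without overlap of libraries; the 3 largest interactions per sign under the same conditions; per list, up to 3 opposite movers of at least 1.5-fold in each line or else the member with the largest interaction; and Vegfa, Slc2a1 and Bnip3. Members, lists and tests were chosen with earlier results of these data known. Gene coordinates are from GENCODE on GRCm38, the same assembly as mm10; 55141 gene identifiers carried a symbol. Shared 75-base words and overlapping exons were searched in the annotated transcripts. Alternatives were DESeq2 1.42.0, other scalings and filters, a replicate block, fits of fewer libraries and each library left out.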

Additional observations from a re-analysis of the deposited data

Results flagged for a closer look

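The hypoxia effect differed between BV2 and GL261 by a test of the difference itself, edgeR's interaction term, for 6322 genes, and for the named genes below at an adjusted p under 0.05. Values are interactions on the log2 scale, BV2 minus GL261, against a median of 0.15 over all genes. Among genes that rose in BV2 and fell in GL261, the interaction was Celsr1 4.04, Maged1 3.18, Rassf8 3.18, Nek8 3.27, Zfp467 2.79, Gsn 4.6, Mtss1 3.03 and Faah 2.93. For the reverse direction it was Spata5l1 -3.77, Ercc8 -3.39, Slc16a6 -3.08, Zbtb2 -3.11, Spry4 -2.89, Ctps -3.25, Sco1 -2.93 and Usp24 -2.56. The other genes with the most extreme interactions at a mean log2 CPM of at least 3 and without overlap of libraries had Selenbp1 6.29, Lims2 6.21, L1cam 5.01, Rtn4ip1 -4.26 and Pif1 -3.92. That of L1cam is a fitted value on 1 read in normoxic BV2 and no bound. Genes of replication, mitosis and repair had Orc2 -3.27, Rfc4 -1.8, Mcm3 -1.87, Cenpe -3.08, Knl1 -2.36, Sgo1 -2.19, Fancm -1.6, Rbbp8 -1.31 and Gtse1 -2.78. Genes of translation, one-carbon supply, respiration and protein turnover had Nop58 -1.99, Mrpl47 -1.76, Mars -1.31, Shmt2 -2.01, Cycs -1.58, mt-Nd4 2.91, Psmc5 -1.34 and Hspa8 1.67. Lysosome, autophagy and sterol genes had Ctsa 2.34, Glb1 2.18, Ctsb 1.55, Wipi1 3.72, Sqle 1.83, Nsdhl 1.89 and Fdps 1.74. Hypoxia, glycolysis and stress genes had Hilpda 3.29, Aldoc 3.18, Egln3 2.87, Ccng2 2.05, Sel1l 1.98, Slc2a1 1.9, Bnip3 0.88, Gstm1 1.64 and Cat 1.63. Immune, matrix and marker genes had H2-T23 2.92, Ccl2 -5.21, Cxcl10 -4.37, Fosl1 -3.9, Spp1 2.14, Loxl3 2.25, Tgfbr2 2.12, Lyz2 2.38, Cd14 1.99 and Mbp 2.15. Genes with few reads in at least 1 line had Timp1 2.72, Hist1h2ae 3.1, Npas2 4.36 and Pecam1 2.49 (the fitted values of Timp1 and Npas2 rest on groups with 0 to a few reads and are no bounds).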

How the results depend on the processing

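The interaction was called for 6322 genes, and DESeq2 called 6293, upper-quartile factors 6342 (56.5% of them higher, against 50%), library totals 6247 (43.6% higher), centring on the medians 6329, all genes with a count 6167, a mean CPM of at least 5 5755 and the 8 monoculture libraries alone 5752. Upper-quartile factors shifted the median of all genes to -0.14 in GL261 and the median interaction to 0.26. Opposite movers with BV2 higher and with BV2 lower numbered 537 and 709, against 547 and 668 with DESeq2, 679 and 545 with upper-quartile factors and 465 and 778 with library totals. Centring on the medians gave 495 and 764, with 47.4% of the called interactions higher. Asking for 2-fold in each line left 109 and 50, of which 64 and 31 were opposite again in co-culture, and leaving out genes 4-fold apart left 132 of the first direction opposite again. With 1 library left out, the called interactions were 5334 to 6401 (2345 to 2772 higher, 2712 to 3629 lower), the opposite movers 374 to 458 and 477 to 862, those opposite again in co-culture 165 to 266 and 224 to 485, and those repeated by BV2 with DMSO 107 to 187 and 241 to 448. The cause of these shifts was not tested, beyond the fewer samples or genes that each setting has by construction.

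Of the comparisons of named genes with an alternative, 1158 kept direction and call, 12 lost the call and none of those run reversed. The 12, all with 1 library left out, concerned Timp1, Npas2, Pecam1 and Bnip3; the interaction of Npas2 was 0.29 without GL261 normoxic replicate 1. The labels do not say that replicate numbers pair libraries, so the numbers were not taken as pairs. Deviations of same-numbered monoculture libraries correlated at -0.055 to 0.16 over the 6 pairs of groups. With the co-culture groups included, the highest correlation was 0.33, between hypoxic GL261 in monoculture and in co-culture. A fit with the replicate number as a block called 6685 interactions and 624 and 784 opposite movers, and moved none of the counts of interactions and opposite movers by more than 1.5 times. With 2 libraries per group, genes with few reads in 1 line have the least certain values. By library totals, 3 counts set a floor of 0.110 to 0.171 CPM in monoculture, which covers counting error only.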

Other observations

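Other lists separated the lines without many opposite movers; their members named here were picked out after the values were seen, and all values are log2 fold changes of hypoxia over normoxia from edgeR. Clock genes rose in both lines, 14 of 18 in BV2 and 16 of 18 in GL261, but their interactions went both ways, 6 positive and 8 negative (5 negative without BV2 hypoxic replicate 1). The positive arm gene Arntl, partner of Clock, was at 1.48 in BV2 and 2.89 in GL261, and the repressors Bhlhe40 and Bhlhe41 were at 2.84 and 1.71 in BV2 and at 3.69 and 3.36 in GL261. Nr1d1, a nuclear receptor that represses Arntl, was at -0.42 in BV2 (adjusted p = 0.40) and 2.15 in GL261. Rora, which activates Arntl, was at 5.54 in BV2 and 2.30 in GL261, and the output factor Dbp was at 2.77 and 0.78 in the same order.

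Of 35 histone cluster genes, 19 rose and 2 fell in BV2 and 6 rose and 1 fell in GL261, with 12 positive and 3 negative interactions. Without GL261 normoxic replicate 1, 7 interactions were positive, and the 6 rises in GL261 became 3 without hypoxic replicate 1 and 2 without normoxic replicate 2. Among genes with a mean CPM of at least 5, 8 of the list were tested, and 4 rose in BV2 and 3 in GL261, with 3 positive interactions. Hist1h4c was at 5.55 in BV2 and 1.32 in GL261 (adjusted p = 0.079 in GL261), whereas the linker histone Hist1h1b was at -1.57 in BV2 and 1.2 in GL261 (adjusted p = 0.072 in GL261). Most histone cluster transcripts lack a poly(A) tail and the libraries were made from poly(A) RNA, so the values concern the polyadenylated share only. Of 31 proteasome genes, 28 fell in BV2 and 15 in GL261, with 19 negative interactions and 1 positive one. The ATPases Psmc1, Psmc3 and Psmc4 were at -1.01, -1.0 and -1.18 in BV2 and at 0.10, 0.18 and -0.04 in GL261, where none of the 3 passed, and Psmd11 was an opposite mover at -0.81 and 0.31. Cyclin Ccnd2 was an opposite mover at -0.75 in BV2 and 0.58 in GL261, Ccnd1 was at -1.87 in BV2 and close to 0 in GL261, and the inhibitors Cdkn1a and Cdkn1b rose in both lines, by 3.80 and 2.34 in BV2 and by 1.78 and 1.07 in GL261. Smad7, an inhibitor of TGF-beta signalling, rose by 0.98 in BV2 and 3.46 in GL261.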
